A study of Rattus norvegicus with 4 samples.

Results

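This report describes 9 genes of insulin-like growth factor binding and insulin signalling in rat liver. They are the binding protein genes Igfbp1, Igfbp2, Igfbp3, Igfbp4, Igfbp5 and Igfbp7, the insulin receptor Insr, and its substrates Irs1 and Irs2. They were chosen by gene symbol and are 9 of 31457 genes in the deposited table. A filter on low levels left 9263 genes, among them 8 of the 9. Igfbp5 did not pass it. The livers came from Lewis rats of allotype RT1L, and poly(A) RNA was sequenced on an Illumina MiSeq in 4 libraries, 1 per group. The naive group is a control with no further treatment given in the labels. The other groups had undergone partial hepatectomy, the removal of part of the liver, and were then given an intravenous treatment. The treatment was saline in the saline group, cells labelled ASCs-siRNC in the siRNC group and cells labelled ASCs-miR27b in the miR-27b group. The labels do not spell out ASCs, read here as adipose-derived stem cells, or siRNC. Age, sex, feeding, the time after surgery and the number of animals behind a library are not stated in the labels. As each group is a single library, the differences below have no replicates behind them and carry no test of the conditions.

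IGF binding proteins are secreted proteins that carry insulin-like growth factors in blood and tissue, lengthen their life and limit their access to the IGF receptor. Insulin acts on hepatocytes through the insulin receptor, a tyrosine kinase that phosphorylates IRS1 and IRS2, which recruit PI3-kinase and lead to activation of AKT. AKT then keeps the transcription factor FOXO1 out of the nucleus, so that genes FOXO1 raises in fasting, such as Igfbp1, Irs2 and G6pc, are transcribed less when insulin is high.

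The promoters of Igfbp1 and Insr are shown because, of the 9 genes, 8 had a promoter entry (all but Irs2) and these alone held a motif of the FOXO type. The motifs CAAAACA and GTAAACA were searched on both strands, and they do not overlap each other in these sequences. Sequences are from RefSeq on GRCr8, a later build than the rn5 named for the table. Each runs through the 250 bases before the annotated start of transcription, in the direction of transcription, with the motif in capitals. The Igfbp1 promoter lies at chr14:86261027-86261276 on the + strand and holds CAAAACA from -121 to -115, counted back from the start.
Igfbp1: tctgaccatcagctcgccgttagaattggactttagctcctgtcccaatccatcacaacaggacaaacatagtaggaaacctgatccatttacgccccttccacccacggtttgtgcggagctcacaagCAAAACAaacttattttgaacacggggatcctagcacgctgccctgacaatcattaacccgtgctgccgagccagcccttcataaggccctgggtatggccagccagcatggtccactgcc
The Insr promoter lies at chr12:6128804-6129053 on the - strand and holds GTAAACA in its reverse complement, TGTTTAC, from -100 to -94.
Insr: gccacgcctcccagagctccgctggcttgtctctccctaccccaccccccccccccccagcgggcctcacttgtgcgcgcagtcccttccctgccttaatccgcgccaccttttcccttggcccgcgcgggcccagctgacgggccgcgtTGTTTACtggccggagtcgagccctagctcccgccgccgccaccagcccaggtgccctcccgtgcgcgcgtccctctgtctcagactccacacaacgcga
Among all 33469 windows of 300 bases, from 250 before to 50 after a start, CAAAACA was found in 6.28%, GTAAACA in 3.78% and either in 9.64%. Of 12 genes fixed as raised by FOXO1, 9 had a window and 1 held a motif, G6pc. A match describes the letters of the window and not binding.

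The deposited values are log2 values set against a baseline of each gene's own, so they give differences between libraries within a gene and not levels of different genes. A gene is described as higher or lower at a difference of 2-fold or more, a log2 difference of 1. Between the saline and naive livers, 3 of the 8 genes passed 2-fold, with Igfbp1 and Igfbp2 higher and Irs1 lower, against 8.81% of all 9263 genes. Between the siRNC and naive livers 1 of 8 passed, Irs1, which was lower, against 8.76%. Between the miR-27b and naive livers 4 of 8 passed, Igfbp1, Igfbp2, Igfbp7 and Irs2, all higher, against 11.3%. These 3 comparisons share the naive library, so they are not separate evidence of one another. The siRNC and saline livers differed past 2-fold in 1 of 8, Igfbp1, which was lower in siRNC, against 3.44%. The miR-27b and saline livers also differed in Igfbp1 alone, higher in miR-27b, against 3.68%. The miR-27b and siRNC livers differed in 2 of 8, Igfbp1 and Irs2, both higher in miR-27b, against 4.73%. Any pair of these last 3 comparisons shares a library as well. The median of the 8 genes was 0.93 for miR-27b minus naive, 0.48 for saline minus naive and 0.31 for siRNC minus naive, where the medians of all 9263 genes were -0.031, -0.011 and -0.0068. For siRNC minus saline, miR-27b minus saline and miR-27b minus siRNC it was -0.16, 0.32 and 0.48, where all genes had -0.0063, -0.00045 and 0.0020. In miR-27b minus siRNC 7 of the 8 genes lay between 0.19 (Insr) and 2.50 (Igfbp1). Igfbp4 was at 0.0032 there, and at -0.011 once the comparison was re-centred on the median of all detected genes. At a lower threshold of 1.5-fold, 5 of 8 passed in saline minus naive against 22.5% of all 9263 genes, 3 in siRNC minus naive against 21.7% and 6 in miR-27b minus naive against 25.8%. Among the hepatectomised livers 3 passed in siRNC minus saline against 13.7%, 1 in miR-27b minus saline against 14% and 3 in miR-27b minus siRNC against 15.7%.

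**Figure D1:**
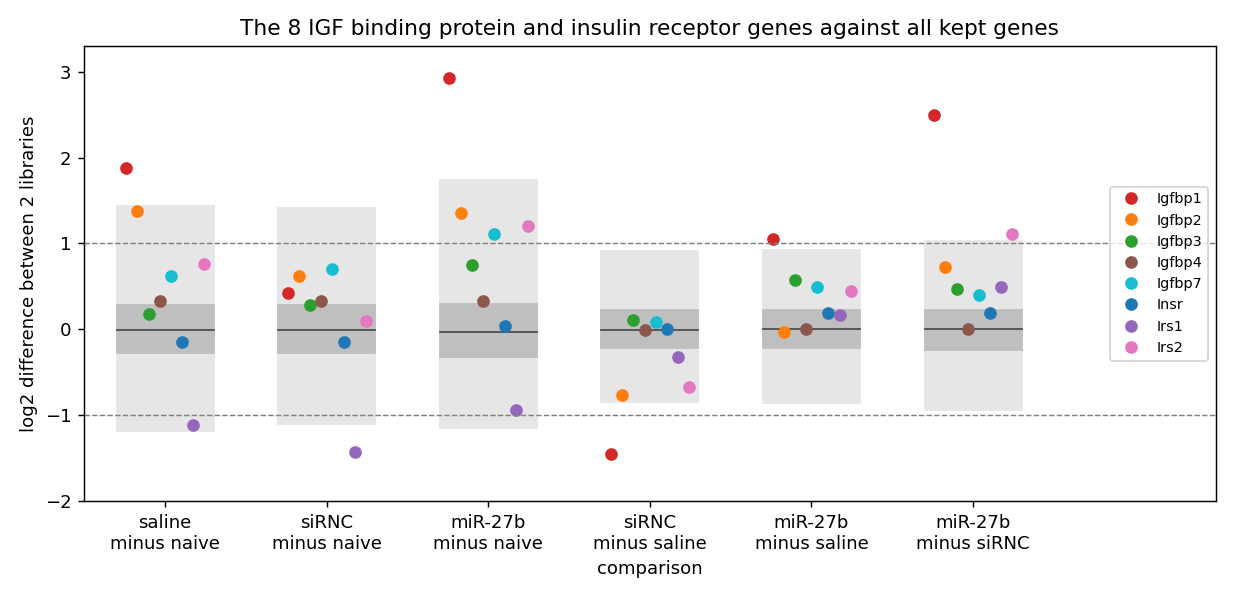
Log2 difference between 2 libraries (y axis) in each of 6 comparisons (x axis) for the 8 genes, over bands that hold the middle 50% (dark) and 95% (light) of all 9263 genes, with their median as a line. Igfbp1 lies outside the light band in every comparison but siRNC minus naive, and Insr and Igfbp4 stay near 0 in the comparisons among the 3 hepatectomised livers.

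Igfbp1, the binding protein that the liver makes in fasting and stress and that insulin lowers within hours, had the widest range of the 8 kept genes. Its deposited log2 values were -1.04 in naive, 0.83 in saline, -0.62 in siRNC and 1.88 in miR-27b liver (gene ID 25685). The saline and miR-27b livers were thus high, and the naive and siRNC livers low. Against naive, Igfbp1 was 3.67-fold higher in saline (log2 difference 1.88), 1.34-fold higher in siRNC (0.43) and 7.60-fold higher in miR-27b (2.93). The last of these was the 44th largest of 9263 differences in that comparison. It was 2.73-fold lower in the siRNC than in the saline liver (-1.45), the 45th lowest difference, and 2.07-fold higher in the miR-27b than in the saline liver (1.05). Between the livers given cells the difference was 5.66-fold (2.50), the 14th highest of 9263. The rounding of the stored values places Igfbp1 at 16 normalized reads or more, but its reads could not be recovered. Counting alone gives a log2 difference an SD of 0.51 where both libraries hold 16 reads and of 0.13 where both hold 256, and variation between animals comes on top.

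**Figure D2:**
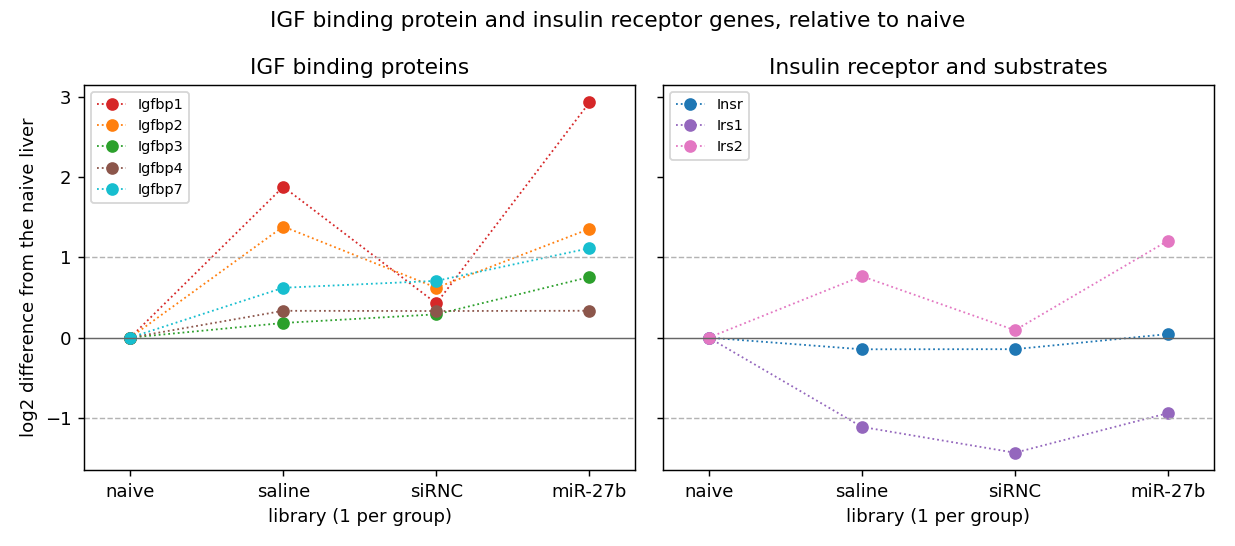
Log2 difference from the naive liver (y axis) in each of the 4 libraries (x axis), for binding protein genes at left and the insulin receptor and its substrates at right, with 1 point per library and dotted lines to guide the eye. Igfbp1, Igfbp2 and Irs2 are lower in siRNC than in saline and miR-27b, while Irs1 is below naive in all 3 hepatectomised livers.

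Igfbp2, a binding protein of fetal and fasted liver, had reads that could be recovered from the table (gene ID 25662). It had 242 reads in naive (95% Poisson interval 212 to 274), 671 in saline (621 to 724), 383 in siRNC (346 to 423) and 605 in miR-27b (558 to 655). The naive liver was lowest, the siRNC liver intermediate and the saline and miR-27b livers high, and only the intervals of the last pair overlap. The log2 difference from naive was 1.38 in saline (95% interval 1.17 to 1.60), 0.62 in siRNC (0.39 to 0.86) and 1.35 in miR-27b (1.14 to 1.57). The miR-27b and saline livers differed by -0.03 (-0.19 to 0.13), and the siRNC liver was below saline by -0.76 (-0.95 to -0.58). The miR-27b liver was above siRNC by 0.73 (0.54 to 0.92). The intervals describe counting error alone and not variation between animals. They may be too narrow even for that, as reads copied by PCR do not stand for separate molecules.

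**Figure D3:**
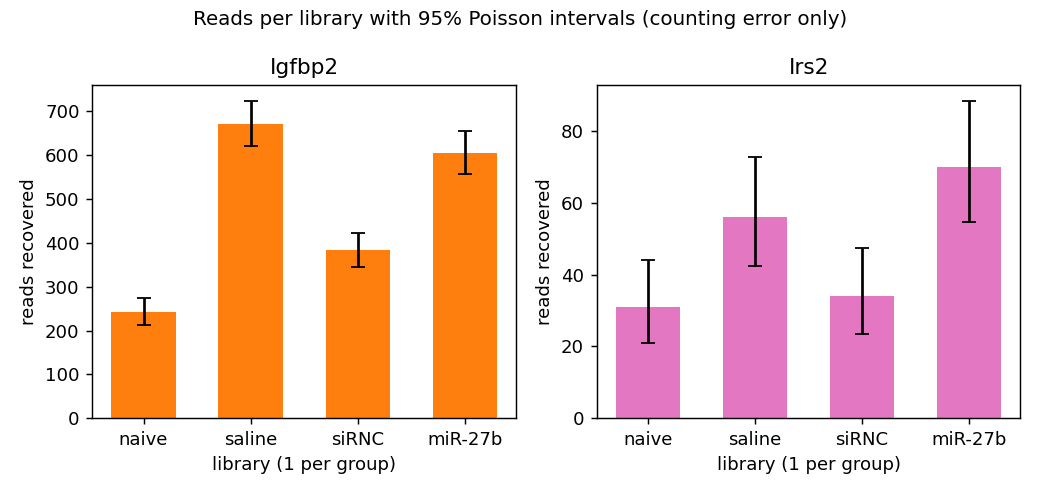
Recovered reads (y axis) of Igfbp2 at left and Irs2 at right in each of the 4 libraries (x axis), with 95% Poisson intervals for counting error as error bars. Both genes have more reads in saline and miR-27b than in naive and siRNC, and the Irs2 intervals are wide, from 31 reads in naive to 70 in miR-27b.

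Igfbp3, the main carrier of IGF1 in blood together with the acid-labile subunit, is made in liver mostly by cells other than hepatocytes. Its deposited log2 values were -0.29 in naive, -0.11 in saline, 0 in siRNC and 0.46 in miR-27b (gene ID 24484). The miR-27b liver was highest, 0.75 above naive, 0.57 above saline and 0.46 above siRNC, and no difference reached 2-fold. Igfbp3 and Igfbp1 are direct neighbours on chromosome 14, on opposite strands and with 0 annotated genes between them in RefSeq. Their library orders differ, as Igfbp1 was lower in siRNC than in saline and Igfbp3 was not (0.11 for siRNC minus saline).

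Igfbp7, a secreted protein of vessels and stroma that binds insulin-like growth factors weakly, had deposited log2 values of -0.71 in naive, -0.09 in saline, 0 in siRNC and 0.41 in miR-27b (gene ID 289560). All 3 hepatectomised livers were above the naive liver, by 0.62, 0.71 and 1.11, and the last of these passed 2-fold. The saline and siRNC livers differed by 0.09. Igfbp7 and Igfbp3 had the same order of libraries, from naive through saline and siRNC to miR-27b, which 577 genes (6.23%) shared. Both are placed at 16 normalized reads or more, where no counting interval can be given. Their saline and siRNC livers were only 0.11 (Igfbp3) and 0.09 (Igfbp7) apart, so the order of these livers is not settled.

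Igfbp4, which binds IGF1 and is released from it by the protease PAPP-A, was the flattest of the binding protein genes after surgery. Its deposited log2 values were -0.33 in naive, 0.0028 in saline, 0 in siRNC and 0.0032 in miR-27b (gene ID 360622). The naive liver was thus the low one, 0.33 below each of the other livers, which lay within 0.0032 of each other. Igfbp4 is placed at 256 normalized reads or more, with a probability of 0.705.

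Igfbp5, a binding protein of mesenchymal cells, was at the limit of detection. It had 1.45 reads in naive and 3.97 in siRNC, and the saline and miR-27b libraries were at the floor of 1 normalized read (gene ID 25285). Reads come in fractions in this table. No fold is given at this depth. Igfbp5 is the direct neighbour of Igfbp2 on chromosome 9, on the opposite strand, with 0 annotated genes between them.

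Insr, which encodes the insulin receptor, had the smallest range of the 8 genes. Its deposited log2 values were 0.07 in naive, -0.07 in saline, -0.07 in siRNC and 0.12 in miR-27b (gene ID 24954). The saline and siRNC livers were together at the low end, 0.0014 apart, and the range over the 4 libraries was 0.19. It is placed at 256 normalized reads or more, with a probability of 0.829. Counting error alone has an SD of 0.13 where both libraries hold 256 reads, with a smaller SD at more reads and a larger one at fewer.

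Irs1, the substrate through which insulin and IGF1 reach PI3-kinase in many tissues, stood below the naive liver in all 3 hepatectomised livers, unlike the other kept genes of the set. Its deposited log2 values were 0.94 in naive, -0.17 in saline, -0.49 in siRNC and 0 in miR-27b (gene ID 25467). The naive liver stood apart as the high one, and the others lay within 0.49 of each other. Irs1 was 2.16-fold lower in saline (log2 difference -1.11), 2.70-fold lower in siRNC (-1.43) and 1.92-fold lower in miR-27b (-0.94) than in naive liver. Among the hepatectomised livers it was 0.17 higher in miR-27b than in saline and 0.32 lower in siRNC than in saline. Its class is 16 normalized reads or more.

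Irs2, the other main substrate in hepatocytes and a gene raised in fasting, stood above the naive liver in saline and miR-27b, where Irs1 stood below it. Its values fit 31 reads in naive (95% Poisson interval 21.1 to 44.0), 56 in saline (42.3 to 72.7), 34 in siRNC (23.5 to 47.5) and 70 in miR-27b (54.6 to 88.4), with a posterior probability of 0.919 (gene ID 29376). A multiple of these reads would fit the values too, and the intervals below would then be narrower. The naive and siRNC livers were low and the saline and miR-27b livers high, but of the intervals only those of naive and siRNC are clear of that of miR-27b, and the others overlap. The log2 difference from naive was 0.76 in saline (95% interval 0.11 to 1.45), 0.09 in siRNC (-0.65 to 0.84) and 1.21 in miR-27b (0.58 to 1.87). The miR-27b liver exceeded siRNC by 1.11 (0.50 to 1.75) and saline by 0.44 (-0.09 to 0.98), and the last interval includes 0. The siRNC liver was below saline by -0.67 (-1.33 to -0.03). Irs2 and Igfbp1 had the order naive, siRNC, saline, miR-27b from low to high. It was the most common of the 24 possible orders, with 651 of 9263 genes (7.03%). Igfbp4 is counted in this order too, but its hepatectomised livers lay within 0.0032 of each other. Re-centring on the median of all detected genes took its miR-27b minus saline difference from 0.00043 to -0.014, so its order is not settled. The order of Irs2 is not settled either, as its intervals for siRNC minus naive and miR-27b minus saline include 0. For Igfbp1 no interval can be given, and its naive and siRNC livers were 0.43 apart.

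Markers of the liver's cell types were read in the same libraries, with macrophage and red cell genes above naive after surgery and hepatocyte genes near it. All 10 hepatocyte markers, among them Alb and Ttr, were present and none passed 2-fold in any comparison. Of all kept genes 3.44% to 11.3% did, depending on the comparison. The hepatocyte medians against naive were -0.0076 in saline, -0.25 in siRNC and 0.066 in miR-27b. Their ranges were -0.44 to 0.41, -0.76 to 0.47 and -0.71 to 0.81. All 11 macrophage markers with a value were above naive in every hepatectomised liver, with medians of 1.28, 1.26 and 1.49 in saline, siRNC and miR-27b and ranges of 1.04 to 2.50, 0.93 to 2.01 and 1.29 to 2.65. Of 12 endothelial markers 11 were kept, with medians of 0.61, 0.30 and 0.78 in the same order. They lay on both sides of naive, with ranges of -0.47 to 1.58, -0.14 to 1.17 and -0.44 to 1.55. Stab1 was at 0 in all libraries. Of 12 stellate and stromal markers 10 were kept, with medians of 0.55, 1.58 and 0.87. They too lay on both sides of naive, with ranges of -0.50 to 1.75, -0.41 to 4.50 and -0.38 to 2.92. Lum, which fibroblasts make, had 4 reads in naive, 3 in saline, 82 in siRNC and 4 in miR-27b. It passed the filter only through the siRNC library and was named after its values were seen. Lum is counted in the stellate and stromal medians and ranges above. The end at -0.50 in saline is Lum itself, at 3 reads against 4, and the next lowest was Pdgfrb (-0.46). The other ends of these ranges are set by other genes. Without Lum the medians were 0.58 in saline, 1.23 in siRNC and 0.97 in miR-27b. All 6 kept erythroid genes were above naive, with medians of 2.36 in saline, 1.91 in siRNC and 2.03 in miR-27b. Of 8 bile duct markers only Krt19 and Epcam were kept, and Krt7 and Sox9 were among those at 0. Igfbp3 and Igfbp7 lay within the ranges of the endothelial and stellate markers in every liver, and Igfbp3 lay within the range of the hepatocyte markers as well, so its values single out no cell type. The part of cell composition in the values of the binding proteins was not tested, and in bulk tissue fewer cells of a type and less RNA per cell cannot be told apart. Levels of markers could not be summed, because the table holds differences only.

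**Figure D4:**
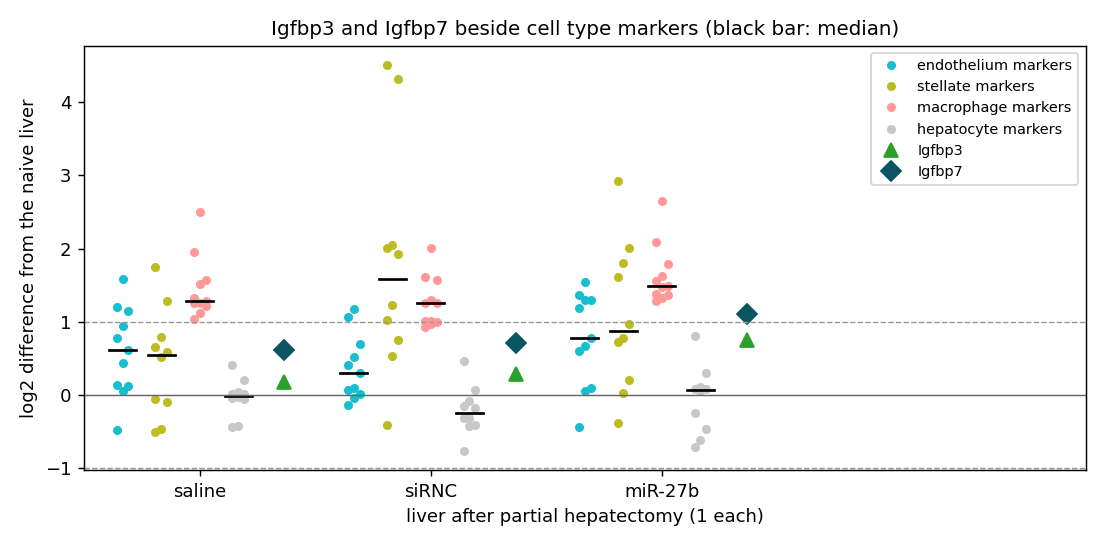
Log2 difference from the naive liver (y axis) in each hepatectomised liver (x axis) for markers of 4 cell types, each point a gene and each bar a median, beside Igfbp3 (triangle) and Igfbp7 (diamond). Hepatocyte markers lie around 0 and macrophage markers near or above 1. Igfbp3 falls within the ranges of the endothelial, stellate and hepatocyte markers and Igfbp7 within the endothelial and stellate ones. A place within these ranges singles out no cell type.

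Other genes of the IGF system were measured beside the binding proteins. Of 13 genes fixed for this axis, 12 were in the table, 5 passed the filter and 0 of those 5 passed 2-fold in any of the 6 comparisons. Depending on the comparison, 3.44% to 11.3% of all kept genes did. Igfals, the acid-labile subunit that holds IGF1 and IGFBP3 in the circulation, had deposited log2 values of 0.01 in naive, -0.75 in saline, 0.22 in siRNC and -0.73 in miR-27b. It was thus high in naive and siRNC and low in saline and miR-27b, the reverse of Igfbp1, with -0.76 for saline minus naive, 0.97 for siRNC minus saline and -0.95 for miR-27b minus siRNC. Igf1, the growth factor itself, was at 0.20 in naive, -0.32 in saline, 0.29 in siRNC and 0 in miR-27b, again lowest in saline. The growth hormone receptor Ghr, which drives Igf1 and Igfals in liver, was at 0.01, -0.24, 0.01 and 0, and Igf2r, the clearance receptor for IGF2, ranged over 0.096. Htra1, a secreted protease that cleaves binding proteins, ranged over 0.25. Igf2, the fetal growth factor, had 2, 2, 2 and 4 reads, and the receptor Igf1r had 3 reads in saline, 4 in miR-27b and the floor in naive and siRNC. Igfbp6 had 2.03 reads in siRNC, Igfbpl1 had 1 in miR-27b, and Stc1 had 1 in naive and 4 in siRNC, each being at the floor elsewhere. Pappa and Stc2 were at 0 in all libraries.

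Below the receptor, the cascade passes through adaptors, PI3-kinase and AKT. Of 25 kept genes of the insulin cascade, from Shc1 to the AKT and mTOR kinases, 3 were higher and 0 lower at 2-fold in saline against naive, with a median of -0.21, against 8.81% of all kept genes past 2-fold. These were Rictor (1.13), a subunit of mTOR complex 2 that phosphorylates AKT, Foxo4 (1.02) and the atypical protein kinase Prkcz (1.02). Rictor had the same difference in siRNC (1.17) and miR-27b (1.15), so that only its naive value was low. Foxo3 was at -0.96 in saline against naive and at 1.57 in siRNC against saline. Pik3r1, the regulatory subunit through which PI3-kinase binds IRS proteins, was high in the siRNC liver alone. Its deposited log2 values were 0 in naive, -0.37 in saline, 1.16 in siRNC and -0.28 in miR-27b. In miR-27b against saline 0 of 25 passed, with a median of 0.03, against 3.68% of all kept genes. In miR-27b against siRNC 1 was lower, Pik3r1 (-1.45), against 4.73%.

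Of 13 kept genes that act as brakes on the cascade, 3 were higher and 0 lower in saline against naive, with a median of -0.15. The share of all kept genes past 2-fold there was 8.81%. Socs3, an inhibitor that cytokines induce and that binds the receptor and its substrates, had deposited log2 values of -2.01 in naive, 0.05 in saline, -1.15 in siRNC and 0.70 in miR-27b. It was thus high where Igfbp1 was high, 2.05 above naive in saline and 1.85 above siRNC in miR-27b. Trib3, a pseudokinase that binds AKT, was high in saline alone, 1.62 above naive, -1.15 in siRNC minus saline and -1.08 in miR-27b minus saline. The adaptor Grb10 had 5.82 reads in naive and 14.55 in saline, and the 95% interval of its difference (1.23) runs from -0.21 to 2.89. Phlpp2, a phosphatase of AKT, was lowest in miR-27b, at -1.63 against siRNC and -0.85 against saline.

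Of 12 genes fixed as raised by FOXO1, 2 were higher and 2 lower in saline against naive, with a median of -0.02. The share of all kept genes past 2-fold there was 8.81%. Ppargc1a, a coactivator of gluconeogenesis, was 1.83 higher and Trib1 1.26 higher, while G6pc, the last enzyme of glucose output, was at -1.02 and the repressor Bcl6 at -4.67. In siRNC against saline 1 was higher, Bcl6 (1.97), and 3 were lower, against 3.44% of all kept genes. The 3 lower ones were G6pc (-1.65), the gluconeogenic enzyme Pck1 (-1.12) and the pyruvate dehydrogenase kinase Pdk4 (-1.0). In miR-27b against siRNC 4 were higher and 0 lower, with a median of 0.46, against 4.73% of all kept genes. The 4 were G6pc (2.21), Ppargc1a (1.85), Pdk4 (1.32) and Pck1 (1.30), and Igfbp1 (2.50) and Irs2 (1.11) stood on the same side. The list did not move as a whole, as 7 of the 12 were above 0. Lowest were Sesn3 (-0.55), Trib1 (-0.44) and Klf15 (-0.28). In miR-27b against saline 2 were higher, Bcl6 (2.65) and Ppargc1a (1.12), against 3.68% of all kept genes. Against naive liver the same list did not move together, as G6pc was at -2.67 in siRNC and -0.46 in miR-27b while Ppargc1a was at 1.10 and 2.96.

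Genes that insulin raises, many of them through SREBP-1c, stood low as a list in the saline liver. In saline against naive 5 of 10 were lower and 0 higher, against 8.81% of all kept genes past 2-fold. The median of the 10 was -1.02, and Mid1ip1 (-2.39) and Srebf1 (-2.12) were among the lower ones. Srebf1 encodes the lipogenic factor itself. In siRNC against saline 7 were higher and 0 lower, with a median of 1.61, against 3.44% of all kept genes. The 7 were led by the lipid droplet protein Pnpla3 (3.58), Mid1ip1 (2.54) and Srebf1 (2.16). In miR-27b against saline 6 were higher and 0 lower, with a median of 1.11, against 3.68% of all kept genes. The 6 were led by Pnpla3 (3.12), the fatty acid synthase Fasn (1.92) and Srebf1 (1.45). In miR-27b against siRNC 0 were higher and 1 was lower, Mid1ip1 (-1.36), against 4.73% of all kept genes, with a list median of -0.38. In miR-27b against saline, Igfbp1 and this list were therefore both higher. In siRNC against saline, Igfbp1 was lower and the list higher. The comparisons with saline share the saline library, so they are not separate evidence of one another. Scd and Scd1 are close copies whose reads may be shared. In saline against naive Scd1 (-1.06) is counted among the 5 lower genes, while Scd was at -0.34. Neither passed 2-fold in siRNC or miR-27b against saline or in miR-27b against siRNC.

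**Figure D5:**
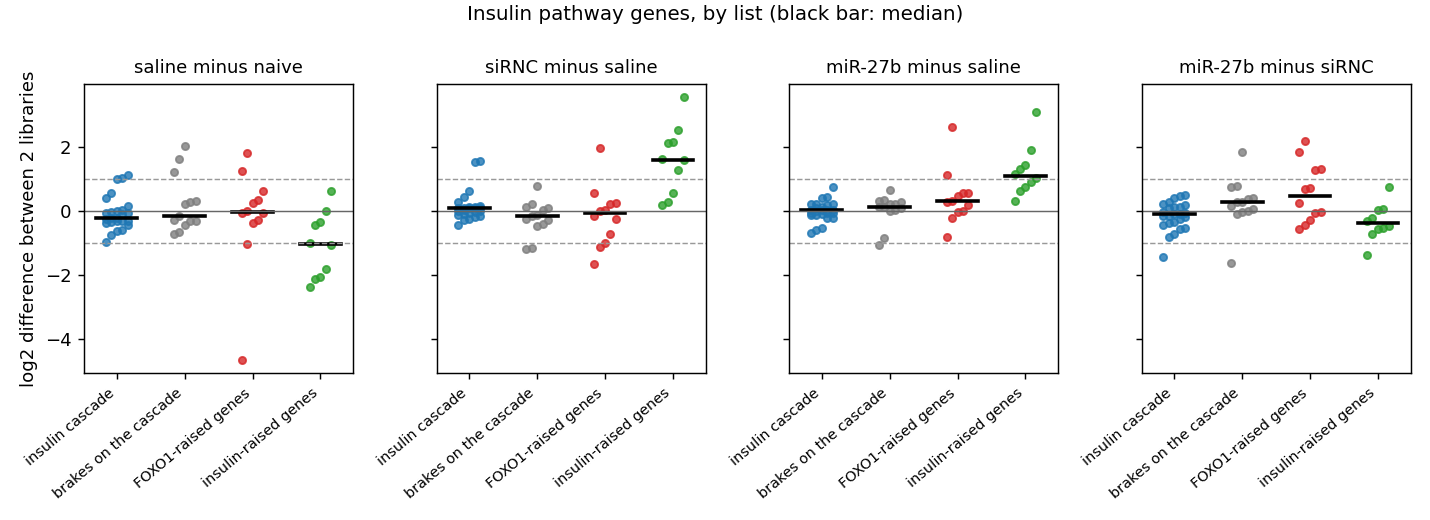
Log2 difference between 2 libraries (y axis) for the genes of 4 lists (x axis) in 4 comparisons, each point a gene and each bar the median of a list, with dashed lines at 2-fold. The median of the insulin-raised genes is -1.02 in saline minus naive, where Acaca (0.63) and Thrsp (0.01) lie above 0, and it is 1.61 in siRNC minus saline and 1.11 in miR-27b minus saline, while the medians of the cascade lie between -0.21 and 0.08.

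For genes that spanned 2-fold or more, the 3 kept genes closest in pattern were found by Euclidean distance between log2 values of the 4 libraries, centred on each gene's mean. The closest to Igfbp1 were Bcl3 (distance 0.323), Socs3 (0.477) and Dmbt1 (0.545). Bcl3 was at 1.56 in saline, 0.15 in siRNC and 2.49 in miR-27b relative to naive. The closest to Igfbp2 were Lgals2 (0.084), Reep5 (0.105) and Gngt2 (0.105). For Igfbp7 they were Zfp385a (0.052), Sepw1 (0.074) and Asah1 (0.081), and for Irs1 they were Akap2 (0.075), Rmdn2 (0.109) and Tjp3 (0.113). For Irs2 they were Insc (0.092), Ccdc6 (0.127) and Oit3 (0.128), the last of which is also one of the endothelial markers. Distances over 4 libraries describe these libraries only, and Igfbp1, which spans the widest range, has no neighbour as near as the others have.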

How the data were processed

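Groups were taken from the source label of each library. The deposited table holds log2 values, which the header calls normalized. DESeq (no version) and the build rn5 appear in the submitters' processing notes. The sources used here do not give the aligner or the counting tool. From the values, each is log2 of reads over a size factor, with a floor at 1 normalized read, less a baseline of the gene's own. The size factors found were 0.977 (naive), 1.039 (saline), 1.005 (siRNC) and 0.956 (miR-27b). Total reads cannot be derived.

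Reads were recovered for 3487 of 12874 genes with a value other than 0, in steps of 1 read in 101, at a posterior of at least 0.9. The step was chosen from these same values as the one that most often fitted. Of 88 fractional values used to find it, 51 lay on it and the others did not. For other genes the binary step of the stored values gave a class, at least 16 or at least 256 normalized reads, where its probability reached 0.5. The filter kept genes with a mean of at least 10 recovered reads or a class of at least 16, in all 9263. Of 997 recovered genes in the class of 16 to 256 reads, the step gave that class in 900 and a higher one in the others. The recovery was tested on simulated data, and the outcome is not reported here. Differences carry no pseudocount. Intervals of differences are exact conditional binomial, at 95%.

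The genes and lists were chosen with earlier results of these data known. Named are the 9 genes, the IGF axis, up to 3 highest and 3 lowest genes of each other pathway list, and the 3 nearest patterns. Pck1 in miR-27b minus siRNC and Lum were named after their values were seen. Some genes of the lists are not reported here by name. Protein sequences were not used here, so a planned description of them was not run. Irs2 had no promoter entry. Python 3.11.15, numpy 2.4.6, pandas 2.3.3 and scipy 1.17.1 were used.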

Additional observations from a re-analysis of the deposited data

Results flagged for a closer look

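Igfbp1 differed from the saline liver in opposite directions in the livers given cells. It was at -1.45 (log2) in siRNC minus saline and at 1.05 in miR-27b minus saline, with 1 library on each side. Both differences use the same saline library, so they are not separate evidence of one another. The difference between these values was not tested.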

How the results depend on the processing

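Re-centring each comparison on the median of all detected genes, and adding 5 normalized reads to Igfbp2 and Irs2, left the 48 and 12 values of the kept genes on their side of 2-fold. The median of all detected genes was 0 in saline minus naive, siRNC minus naive and siRNC minus saline, so re-centring could change nothing there. For miR-27b minus naive, saline and siRNC it was 0.0043, 0.015 and 0.014, so only values that near to a limit could cross it. The direction held in all but 2 of the 48, both of Igfbp4 and near 0. They went from 0.00043 to -0.014 in miR-27b minus saline and from 0.0032 to -0.011 in miR-27b minus siRNC. Re-centring on the median of the 9263 kept genes, chosen after seeing the data, left the medians of the 8 genes in their direction. At a threshold of 1.5-fold, 5 of the 8 passed in saline minus naive, against 22.5% of all 9263 genes. In siRNC minus naive 3 passed against 21.7%, and in siRNC minus saline 3 passed against 13.7%. These counts are above those at 2-fold because the threshold is lower. In miR-27b minus naive, miR-27b minus saline and miR-27b minus siRNC 6, 1 and 3 passed, against 25.8%, 14% and 15.7%. Leaving out genes with a library seen at the floor kept the counts of genes past 2-fold within 1.5 times. With other filters they moved, but those filters leave unlike numbers of genes, 12874 and 3123 against 9263. The counts below are raw, and shares were not compared. With every gene that had a value other than 0, the count was 1942 in saline minus naive, 1942 in siRNC minus naive and 2424 in miR-27b minus naive. For siRNC minus saline, miR-27b minus saline and miR-27b minus siRNC it was 1132, 1311 and 1492. With a mean of at least 50 or a class of at least 256 normalized reads, chosen after seeing the data, which left 3123 genes, it was 204, 198, 270, 72, 69 and 107 in the same order. No paired analysis was possible because each group holds 1 library. For Igfbp1, Igfbp3, Igfbp7 and Irs1 only a class of level is known, so no counting interval can be given.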
